A study of Eptesicus fuscus and Canis lupus familiaris and Equus caballus with 4 samples.

Results

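The hairpins described here are 2 miRNA-like hairpins that were listed in testis small RNA of bat (the big brown bat), horse and dog, and that lie off the sex chromosomes in the horse and the dog. They were chosen by name, because their mature sequences match in all 3 lists of hairpin candidates. The mature sequence is the stretch of the hairpin that the prediction program gives as the small RNA product. Set 1 holds bat Candidate_205, horse Candidate_386 and dog Candidate_75, and set 2 holds bat Candidate_12, horse Candidate_322 and dog Candidate_103. A search for listed rows that overlap these hairpins on either strand added 1 more, horse Candidate_374, so that there are 7 members among the 1453 candidates of the 3 lists. Set 1 has 4 members and set 2 has 3, of which the bat gave 2, the horse 3 and the dog 2.

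Each list comes from 1 library of adult testis of 1 species (bat Eptesicus fuscus, horse Equus caballus, dog Canis lupus familiaris), read as 50 bp single-end Illumina sequences from the small RNA fraction. The tissue was snap frozen and no treatment is named in the labels. A library of a second bat, also adult testis, was not analysed here. With 1 library per species there are no replicates, no test between species was run, and an individual, a library and a species cannot be told apart.

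A miRNA is cut out of a hairpin transcript by nuclease steps, first Drosha near the base of the stem and then Dicer near the loop. This leaves a short duplex of both arms, of which usually one strand is loaded into an Argonaute protein. The loaded strand finds its target mRNAs mainly through its seed, bases 2 to 8 from the 5′ end, so a shift of the 5′ end changes the seed. Between species the mature arm of a miRNA usually changes least, while the loop and the bases outside the stem are freer to change. An annotation of the builds was not used here, so the text gives neither a miRNA name nor a host gene, exon or intron for any candidate.

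The hairpins of set 1 are shown because almost the whole hairpin is the same in the 3 species. They are given 5′ to 3′ as DNA letters from the deposited lists, on the strand of the candidate, with the listed mature sequence in capitals, and both listed sequences in capitals for the horse, where the longer hairpin of Candidate_374 is printed.
Bat Candidate_205: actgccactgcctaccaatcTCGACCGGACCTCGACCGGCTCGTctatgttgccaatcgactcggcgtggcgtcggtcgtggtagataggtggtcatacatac
Horse Candidate_386 and Candidate_374: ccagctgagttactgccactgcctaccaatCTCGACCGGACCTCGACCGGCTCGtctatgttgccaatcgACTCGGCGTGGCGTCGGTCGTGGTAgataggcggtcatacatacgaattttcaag
Dog Candidate_75: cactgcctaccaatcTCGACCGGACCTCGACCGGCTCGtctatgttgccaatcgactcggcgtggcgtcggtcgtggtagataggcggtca

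The bat hairpin lies on contig ALEH01054038.1, bases 26163 to 26265 on the minus strand, and its chromosome is not known. The horse hairpin of Candidate_386 lies at chr1:26935090-26935212 on the plus strand, and that of Candidate_374 starts at the same base and runs 2 bases further. The dog hairpin lies at chr28:15765912-15766002 on the minus strand of CanFam3.1, the build named in the submitters' processing notes. CanFam3.1 is also named there for the bat and horse lists, so the builds behind their positions could not be settled here.

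The hairpins of set 2 are shown in the same way, since their mature arm, by whose match they were chosen, carries a long run of C. The changes lie elsewhere.
Bat Candidate_12: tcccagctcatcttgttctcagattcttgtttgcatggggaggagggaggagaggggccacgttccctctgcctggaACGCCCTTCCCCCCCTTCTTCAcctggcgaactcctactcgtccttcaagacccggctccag
Horse Candidate_322: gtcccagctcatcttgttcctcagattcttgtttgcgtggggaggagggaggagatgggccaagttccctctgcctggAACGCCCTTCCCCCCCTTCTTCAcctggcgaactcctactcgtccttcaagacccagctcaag
Dog Candidate_103: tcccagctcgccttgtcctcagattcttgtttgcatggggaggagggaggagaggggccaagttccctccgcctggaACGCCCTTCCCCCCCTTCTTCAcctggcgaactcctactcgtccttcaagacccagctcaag

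The bat hairpin of set 2 lies on contig ALEH01116778.1, bases 36768 to 36906 on the minus strand. The horse hairpin lies at chr28:41193631-41193771 on the minus strand and the dog hairpin at chr10:20818801-20818939 on the plus strand of CanFam3.1. No other listed candidate lay within 50000 bases of a member on the same chromosome or contig. The bat contigs held no other candidate at all, and the nearest ones were 1330525 bases away for set 1 and 576465 for set 2 in the horse, and 150914 and 2427329 in the dog.

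The match of the mature sequences chose the members and is described only. All 6 sequences of the rule matched without a mismatch over 18 bases, where 2 mismatches and a start up to 2 bases apart were allowed. Such matches were rare, since 4 of the 647 distinct bat mature sequences, or 0.618%, had a match in both other lists.

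Set 1 was the same in the 3 species along its opposite arm and its loop, as well as along the mature arm by which it was chosen. Each hairpin was split into the mature sequence, the opposite arm (the stretch paired to it in the predicted fold, shifted by the 2-base 3′ overhang that these nucleases leave), the loop between them and the flanks. The opposite arm was identical in 24 of 24 aligned bases between bat and horse, bat and dog, and horse and dog. The loop was identical in 14 of 14 bases for both bat pairs and in 16 of 16 for horse and dog.

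A single difference was found in set 1. It was T91C, a T in the bat and a C in both the horse and the dog, with positions counted from 1 at the 5′ end of the bat hairpin. It lay in the 3′ flank, in the lower stem, where the bat T was paired to the A at base 7. In their own predicted folds the horse and dog C paired to a G, so the base is paired in each species, with a different partner. Bat and horse were thus identical in 102 aligned bases and different in 1 (99.03%), bat and dog in 90 of 91, and horse and dog in 91 of 91. The longest stretch without any difference ran over 85 bases, from base 6 to base 90 of the bat hairpin.

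Set 2 had more differences than set 1. None of them lay in its mature arm, whose match chose the members, so this is described only. The mature arm was identical in 22 of 22 bases between bat and horse and between bat and dog, and in 23 of 23 between horse and dog. The opposite arm was identical in 24 of 26 bases between bat and horse, 25 of 26 between bat and dog, and 26 of 27 between horse and dog. The loop was identical in 12 of 12, 11 of 12 and 9 of 10 bases of the same pairs. Over the whole hairpin 6 columns differed between bat and horse (95.7% identical), 7 between bat and dog (94.96%) and 6 between horse and dog (95.7%), and the bat and horse and the horse and dog alignments each held 1 gap. The longest stretch shared by the 3 species had 61 bases, from base 71 to base 131 of the bat hairpin, and so it covered the whole mature arm and most of the 3′ flank.

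More of the bases that changed in set 2 were unpaired than paired. The bat fold has 42 base pairs in 139 bases, the changes are few, and a preference for unpaired bases was not tested. Horse and dog shared 3 differences from the bat. C61A lay unpaired in the opposite arm, G132A lay in the outer stem, where the partner T at base 8 can pair to either base, and C137A lay unpaired near the 3′ end. The horse alone had A35G, unpaired in the flank, G54T in the opposite arm, and an extra C in the 5′ flank. The dog alone had A10G and T11C in the 5′ flank and T70C in the terminal loop, and T17C beside the place of the gap, where the base that differs depends on the alignment.

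Few base pairs of the folds were touched by the changes. Of the 42 base pairs in the bat fold of set 2, the horse had the same bases at 40 and the dog at 40. For the horse bases, 1 changed pair could still form and 1 was lost, namely that of G54 with the T at base 84 inside the mature arm. For the dog bases, 1 changed pair could still form and 1 was lost, namely the pair of T11 with the A at base 128 in the outer stem. No pair had changed at both bases in either set. In set 1 the bat fold had 30 pairs, of which 29 had the same bases in the horse hairpin and 27 had them in the dog one, where 2 more were beyond the end of the listed stretch.

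**Figure D1:**
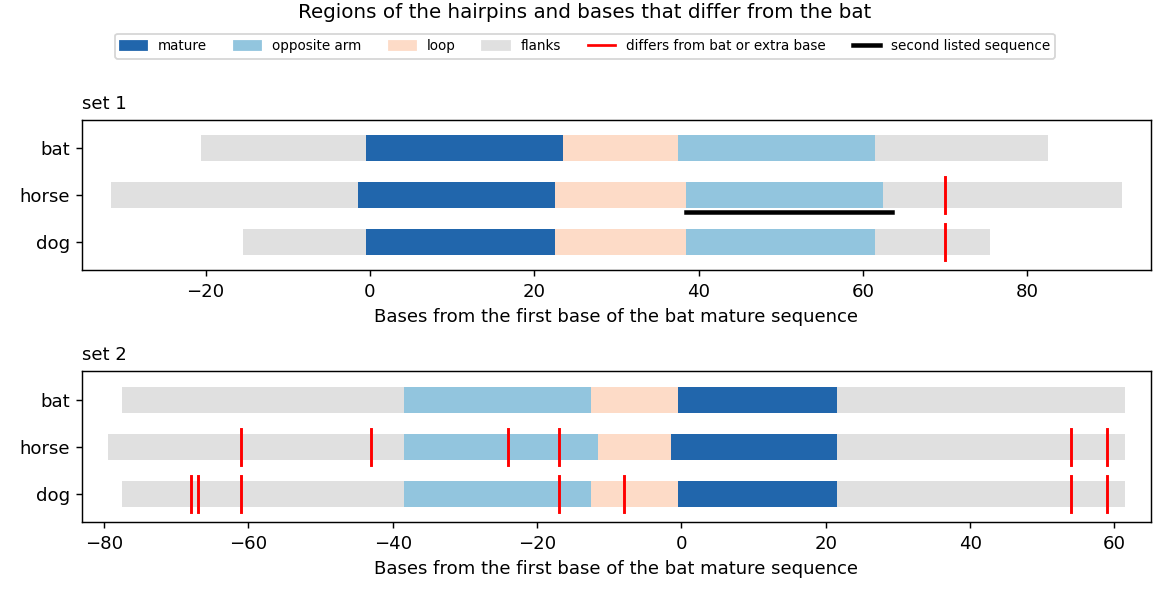
Regions of the hairpins of set 1 (top) and set 2 (bottom) in bat, horse and dog, along the number of bases from the first base of the bat mature sequence, in each species' own hairpin. Red marks are bases that differ from the bat or are extra. The black line under the horse is the second listed sequence, that of Candidate_374. Set 1 has 1 mark at the same place in horse and dog. In set 2 no mark falls in the mature sequence, whose match chose the members.

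Most other matched hairpins differed more between species outside the mature sequence. The same measure was computed for each pair of distinct mature sequences that matched between 2 lists, 15 pairs for bat and horse, 25 for bat and dog and 16 for horse and dog, members included. These pairs are not independent, because some share a sequence or belong to the same family. The 16 pairs of horse and dog hold 11 distinct dog sequences, because several horse X chromosome candidates matched dog Candidate_339, which had 1 read. Those pairs were 56% to 70.8% identical in the opposite arm and 25% to 62.5% in the loop. Values this low pull down the horse and dog medians. The members were chosen for a match in all 3 lists, so the values are set side by side without a test. The members also matched without a mismatch, while many other pairs had 1 or 2. The other pairs without a mismatch were 70.1% to 90.4% identical outside the mature sequence for bat and horse. They were 66.7% to 94.3% identical for bat and dog and 84.0% to 98.5% for horse and dog. Most of them lay above the medians given next, so the lead of the members over such pairs is smaller.

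Between bat and horse, set 1 was 98.7% and set 2 94.9% identical outside the mature sequence, and the other 13 pairs ranged from 51.9% to 93.2% with a median of 80.2%. Between bat and dog the values were 98.5% and 94.02%, against 50.7% to 94.3% in the other 23 pairs, with a median of 79.2%, so that 1 other pair was above set 2. Between horse and dog they were 100% and 94.9%, against 57.02% to 98.5% in the other 14 pairs, with a median of 83.9%, and 2 of those were above set 2. How much flank is compared depends on the listed lengths. Between horse and dog, set 1 covered 67 columns outside the mature sequence, and the 2 pairs above set 2 covered 59 and 67. The remaining pairs of horse and dog, set 2 among them, covered 86 to 122.

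The loops of the members lay further above the medians of the other pairs than their opposite arms did, but identity cannot exceed 100%. The opposite arm medians of the bat pairs, 95.2% and 95.7%, left little room above them. No trait particular to the loop is therefore read from this difference. Set 1 had a loop identity of 100% in each species pair, against medians of 69.2%, 71.4% and 67.7% in the other pairs of bat and horse, bat and dog, and horse and dog. Set 2 had 100%, 91.7% and 90% in the same order. A loop as similar as that of set 1 was found in 2 of the other 13, 3 of the other 23 and 0 of the other 14 pairs. For the opposite arm, the set 2 value of 92.3% between bat and horse was below the median of 95.2% in the other pairs, 7 of which were at least as similar. Most of the other pairs without a mismatch had an opposite arm at 100%, above set 2, in each species pair. Against all other pairs, set 2 had 96.2% between bat and dog, with a median of 95.7%, and 96.3% between horse and dog, with a median of 85.9%. The pairs of dog Candidate_339 pull down this last median and the loop median of horse and dog, so no lead of set 2 is read from either. A horse and dog loop at least as similar as that of set 2 was found in 3 of the other 14 pairs. All 3 matched without a mismatch, as set 2 did. Among the other horse and dog pairs without a mismatch, loop identity ranged from 68.75% to 93.3%. The opposite arm of set 1 was at 100% throughout, as it was in 3 of the other 13, 10 of the other 23 and 3 of the other 14 pairs. Loops are short, down to 10 bases in set 2, so 1 base moves the percentage far.

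The remaining sequences that matched in all 3 lists had lower loop identities to the bat than the members had. Bat Candidate_381, with horse Candidate_138 on chromosome 24 and dog Candidate_245 on chromosome 8, had an opposite arm identical to both but a loop of 70% identity to the horse and 80% to the dog. Bat Candidate_683, with Candidate_606 and Candidate_305 on the X chromosome of horse and dog, had a loop of 62.5% identity to the horse and 81.2% to the dog. Between horse and dog, the loops of Candidate_138 and Candidate_245 were 90% identical, the same as in set 2, and those of Candidate_606 and Candidate_305 were 75% identical.

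**Figure D2:**
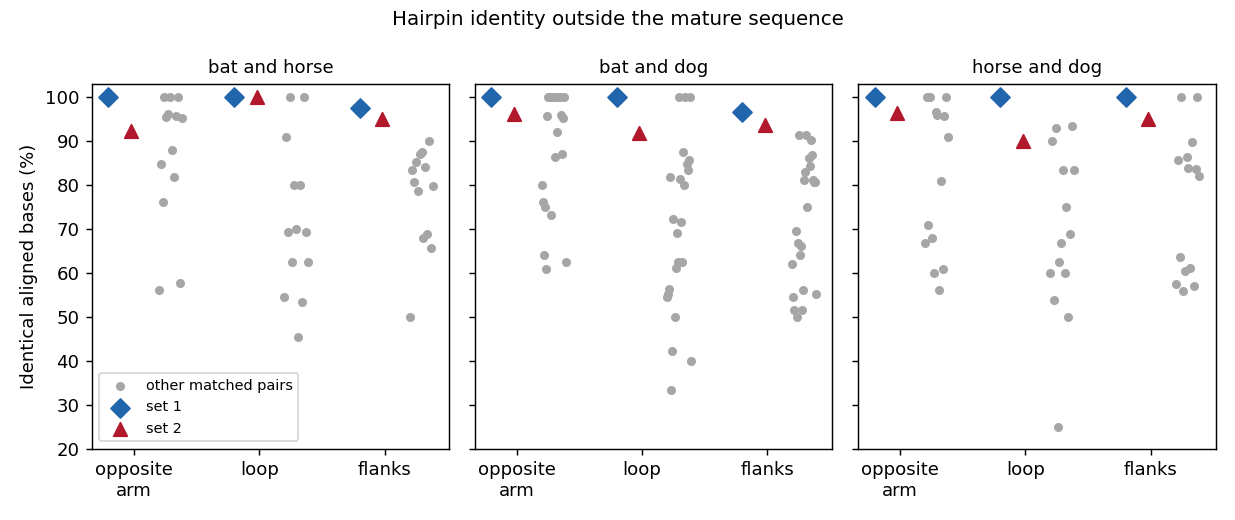
Percent of identical aligned bases in the opposite arm, the loop and the flanks for each species pair. Blue diamonds are set 1, red triangles set 2 and grey points the other pairs with matching mature sequences; set 1 lies at 100% in the opposite arm and the loop, and in the flanks no other bat pair reaches either set.

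The listed product lay on the 5′ arm in set 1 and on the 3′ arm in set 2, in every species. Neither arm is unusual, as 45.8% (bat), 48.1% (horse) and 50.8% (dog) of all candidates had their mature sequence on the 5′ arm. The exception is the added horse Candidate_374, whose sequence is the 3′ arm of the set 1 hairpin.

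In both sets the horse product was listed 1 base further upstream. The mature sequences are shown here with the seed, bases 2 to 8, in capitals, because this shift changes it.
Bat Candidate_205: tCGACCGGacctcgaccggctcgt
Horse Candidate_386: cTCGACCGgacctcgaccggctcg
Dog Candidate_75: tCGACCGGacctcgaccggctcg
Horse Candidate_374: aCTCGGCGtggcgtcggtcgtggta
Bat Candidate_12: aCGCCCTTcccccccttcttca
Horse Candidate_322: aACGCCCTtcccccccttcttca
Dog Candidate_103: aCGCCCTTcccccccttcttca

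The bat and dog products started at the same aligned base and shared their seed in each set. In set 2 the start and seed of the bat product rest on only 2 reads of 2 distinct sequences. The horse seed was TCGACCG in set 1 and ACGCCCT in set 2, against CGACCGG and CGCCCTT in bat and dog. The 3′ end was the same in the 3 species in set 2, and in set 1 the bat sequence ran 1 base further than the others. Among the 15 matched pairs of bat and horse, 12 started at the same base, and the only 2 in which the horse started 1 base upstream were these sets. Among the 16 pairs of horse and dog, the dog started 1 base downstream in 4, including both sets. The lists give 1 sequence per candidate and not the ends of each read, so whether other 5′ ends occur within a species was not tested. No other candidate of the same list shared the seed of a member. Across lists, each bat seed was found again at 1 of 252 dog candidates, the member itself, and at 0 of 439 horse candidates.

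The horse list held products of both arms of the set 1 hairpin at nearly equal reads. Candidate_386 on the 5′ arm had 296 reads of 19 distinct sequences, and Candidate_374 on the 3′ arm had 304 reads of 43 distinct sequences. The counts are given per hairpin candidate, and taking each as the reads of its listed arm is an assumption. Read in this way, the 3′ arm made up 50.7% of the 600 reads (95% exact Clopper-Pearson interval 46.6 to 54.7), and this interval includes equal use. In the predicted fold the listed 5′ product ended 2 bases beyond the partner of the first base of the 3′ product, at the loop end. At the base of the stem the listed 3′ product ended 3 bases beyond the partner of the first base of the 5′ product. Its length of 25 bases is the longest that any list holds, and whether its 3′ end was cut at that length was not tested. The listed sequences lay 16 bases apart.

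The 3′ arm sequence of the horse was present without a change in the bat hairpin, at bases 60 to 84, and in the dog hairpin, at bases 55 to 79. No bat or dog candidate listed it as a product. The lists give only candidates that passed the program, so reads of this arm in bat and dog are unknown and no limit can be set on them. An overlapping candidate with its product on the other arm is common, being found for 20.3% of horse, 23.2% of bat and 14.3% of dog candidates. None of the 3 set 2 members had one.

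Reads differed between the sets and the species. In set 1, bat Candidate_205 had 40 reads of 11 distinct sequences (exact Poisson 95% interval 28.6 to 54.5), horse Candidate_386 had 296 reads (263.2 to 331.7) and dog Candidate_75 had 36 reads of 7 sequences (25.2 to 49.8). In set 2, bat Candidate_12 had 2 reads of 2 sequences (0.242 to 7.22), horse Candidate_322 had 24 reads of 14 sequences (15.4 to 35.7) and dog Candidate_103 had 16 reads of 8 sequences (9.15 to 26.0). The horse count was the highest and the bat count of set 2 the lowest, while bat and dog in set 1 and horse and dog in set 2 had overlapping intervals. These intervals cover counting error only, and reads without molecular identifiers are not independent molecules.

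**Figure D3:**
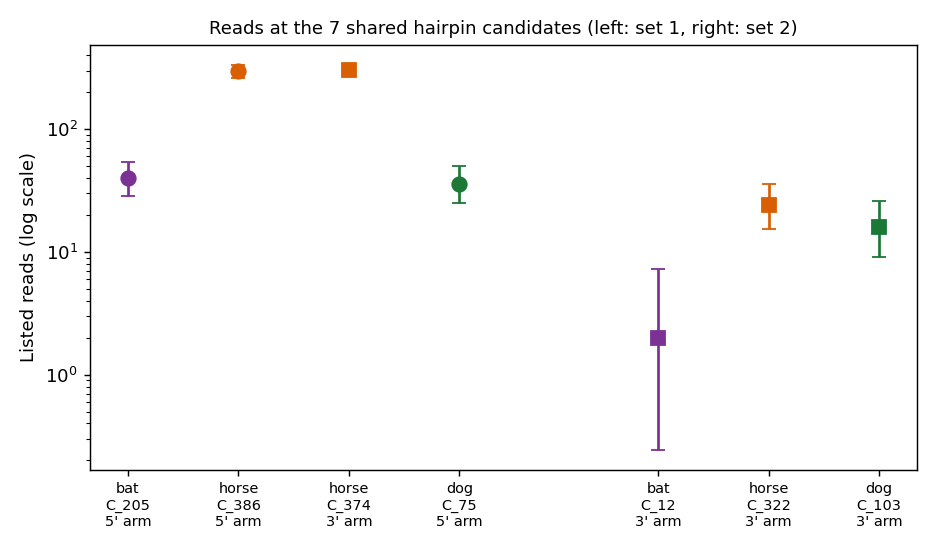
Reads listed at each member on a log scale, with exact Poisson 95% intervals; circles are products of the 5′ arm, squares of the 3′ arm, and the colours are species. The horse members of set 1 lie at 296 and 304 reads, and bat Candidate_12 rests on 2 reads.

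Counts of different libraries need a common total, and the lists give one only in part. The lists summed to 78353 bat, 49454 horse and 54563 dog reads, with a mature sequence that several candidates share counted only at the one with most reads. Per 10000 of these reads, bat Candidate_205 had 5.11 (3.65 to 6.95), horse Candidate_386 had 59.9 (53.2 to 67.1) and dog Candidate_75 had 6.60 (4.62 to 9.13). In set 2, bat Candidate_12 had 0.255 (0.0309 to 0.922), horse Candidate_322 had 4.85 (3.11 to 7.22) and dog Candidate_103 had 2.93 (1.68 to 4.76). These values depend on the candidate with most reads in each list, above all in the dog, where it had 37280. Without it in each list, bat Candidate_205 made up 0.0581% of listed reads, horse Candidate_386 0.786% and dog Candidate_75 0.208%, so that the bat and dog values of set 1 moved apart. In set 2, bat Candidate_12 then made up 0.0029%, horse Candidate_322 0.0638% and dog Candidate_103 0.0926%, and the dog stood above the horse, the reverse of the order with all candidates. No order of bat and dog in set 1, or of horse and dog in set 2, is therefore read from these shares. In the deposited fraction of all reads, given to 3 decimals, both horse members of set 1 stand at 0.001 and the other members at 0.

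The balance of the sets within a library needs no total. Set 1 on the 5′ arm gave 40 of the 42 bat reads of both sets (95.2%, 83.8 to 99.4), 296 of the 320 horse reads (92.5%, 89.05 to 95.1) and 36 of the 52 dog reads (69.2%, 54.9 to 81.3). The dog share was the lowest of the 3 libraries. The intervals cover counting error only, the 36 dog reads came from 7 distinct sequences, and whether the species differ was not tested. Set 1 had more reads than set 2 in each library, with ratios of 20 (bat), 12.3 (horse) and 2.25 (dog).

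Within their own lists the members stood at different heights. Among the distinct mature sequences of a list, 20.6% had at least as many reads as bat Candidate_205, 5.45% as many as horse Candidate_386 and 17.9% as many as dog Candidate_75. The 3′ product in the horse stood at 4.94%. For set 2 the shares were 71.6% (bat), 16.6% (horse) and 28.5% (dog). Over all listed candidates, with shared mature sequences counted each time, the median was 3 reads in each list. Bat Candidate_12 lay under that median and the other 6 members above it. Reads per distinct sequence were 3.64, 15.6 and 5.14 for set 1 in bat, horse and dog, 7.07 for the 3′ product in the horse, and 1, 1.71 and 2 for set 2.

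**Figure D4:**
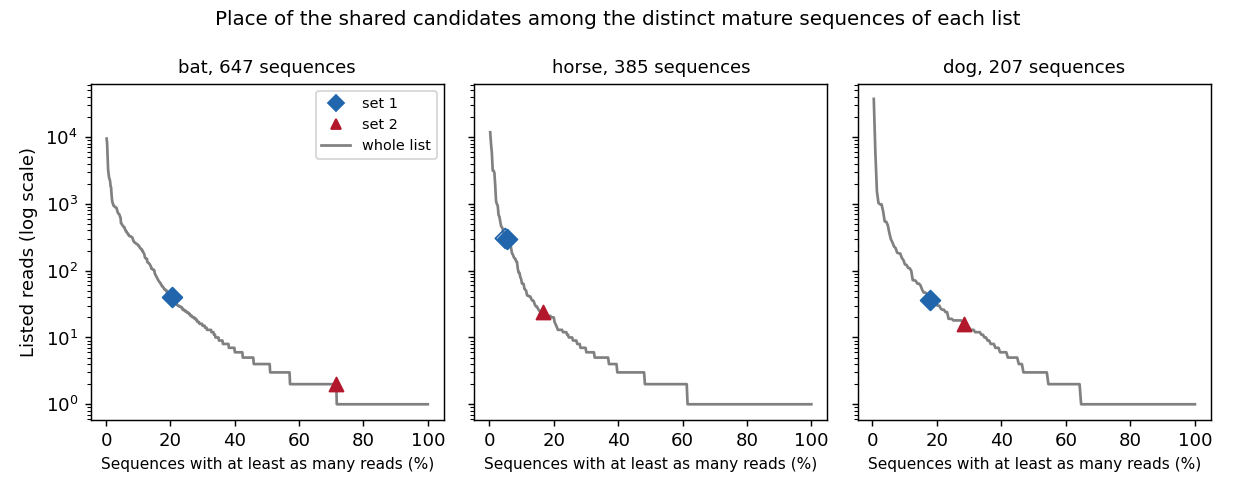
Listed reads on a log scale for the distinct mature sequences of each list (grey line), against the percent of sequences with at least as many reads, with set 1 as blue diamonds (the horse has 2, nearly on top of each other) and set 2 as red triangles. Bat Candidate_205 lies at 20.6%, horse Candidate_386 at 5.45% and dog Candidate_75 at 17.9%, and set 2 lies lower on the curve in each species.

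Support by the prediction models did not separate the members from their lists. All 5 models predicted horse Candidate_374, dog Candidate_75 and horse Candidate_322, and 4 models predicted the remaining 4 members. Such full support was given to 51.6% (bat), 47.2% (horse) and 50.0% (dog) of all candidates.

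The folds of the sets differed in how tightly the mature arm was paired. In set 1, 75.0% of mature bases were paired in the bat, 79.2% in horse Candidate_386, 76.0% in horse Candidate_374 and 78.3% in the dog, all below the list medians of 84.0% in the bat and 81.8% in the horse and the dog. With lonely pairs left out of the fold, Candidate_374 had 84.0%, above that median, and the other members of set 1 stayed between 75.0% and 78.3%. In set 2 the shares were 90.9% (bat), 87.0% (horse) and 90.9% (dog), all above those medians. The terminal loop had 14 unpaired bases in set 1 and 8 in set 2, the same number in each species. The predicted minimum free energies were −38.3, −38.4 and −37.9 kcal/mol for set 1 in bat, horse and dog, and −56.6, −52.0 and −54.8 kcal/mol for set 2. Per base of hairpin they were −0.372, −0.312 and −0.416 for set 1 and −0.407, −0.369 and −0.394 for set 2, beside list medians of −0.414, −0.391 and −0.387. Set 1 in bat and horse and set 2 in bat and horse folded less tightly per base than the median candidate of their list, and both dog members more tightly. These folds were part of what the program selected on, and the hairpin of set 1 was listed at different lengths, from 91 bases in the dog to 125 in horse Candidate_374.

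The mature sequences of the sets have unlike compositions. The set 1 product carries TCGACCGG in 2 copies that start 11 bases apart, the same in each species. Mature sequences with a repeated stretch of 8 bases made up 1.18% (bat), 0.911% (horse) and 1.19% (dog) of the lists. It also holds 5 CpG dinucleotides in each species, as does the 3′ product in the horse, while the median candidate had 1. Those with at least 5 CpG made up 0.394% (bat), 1.14% (horse) and 0.397% (dog). In the dog list Candidate_75 was the only one.

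The set 2 product holds a run of 7 C, and 86.4% of its bases were pyrimidines in the bat and the dog and 82.6% in the horse. The median candidate had 52.0% pyrimidines in the bat and the horse and 52.2% in the dog. Mature sequences with 7 or more C in a row made up 0.131% (bat), 0.456% (horse) and 0.397% (dog) of the lists. In the bat and dog lists the member was the only one. The opposite arm, as the printed hairpins show, is rich in G and A.

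Neither hairpin resembled another hairpin in its own list. No member aligned to a candidate at another locus with 80% identity or more across 50 bases or longer, while 50.3% (bat), 24.4% (horse) and 36.1% (dog) of all candidates did so. The study's title asks whether putative miRNAs came from DNA transposons. This comparison covers listed hairpins only and does not test the origin of the members.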

How the data were processed

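Small RNA of testis was compared between 1 bat, 1 horse and 1 dog library, grouped by the species in their titles. The authors ran, per the column description they deposited, a local installation of miRanalyzer, which gives for each hairpin candidate the whole-number count of distinct read sequences and of reads, a score (how many of 5 models predicted it) and a fraction of all reads in the analysis. The deposited counts are not normalized. The sources used here give neither trimming and mapping settings nor whether known miRNAs were removed. The processing notes name CanFam3.1 for each species, including bat and horse.

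The members and lists were chosen with earlier results of these data known. All 7 members are named, as were any candidates within 50000 bases (none was found) and the other sequences shared by all lists. Mature sequences matched at no more than 2 mismatches over 18 bases and starts within 2 bases. Hairpins were folded with RNAfold 2.7.2 at 37 °C and aligned globally in Biopython 1.88 (match 2, mismatch −1, gap open −3, gap extend −1, end gaps free), with gap columns counted as different. Similar hairpins came from blastn 2.17.0 (word size 7, E-value 0.001). The 3-way alternative used mafft 7.526. The rest used Python 3.11.15, numpy 2.4.6, pandas 2.3.3, scipy 1.17.1 and matplotlib 3.10.9. The matching, region and alignment steps were tested on simulated hairpins with fully paired stems and without inserted or lost bases. Mature arms with unpaired bases, as in the members, and a gap, as in set 2, were not covered by this check.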

Additional observations from a re-analysis of the deposited data

How the results depend on the processing

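No paired analysis was possible because each species has 1 library and no test was run. The region identities of both sets stayed inside their counting intervals under 5 alternatives. These were a gap opening score of −5, mafft, region borders from the other species, gap columns left out, and the opposite arm set by distance. The intervals treat bases as independent and are wide for short regions, such as 55.5% to 99.7% for the set 2 loop of horse and dog. Staying inside them is thus a weak check. The largest move was that of this loop, from 90% to 93.3% with the opposite arm set by distance. The pairing of mature bases without lonely pairs and the places with every listed candidate also stayed inside theirs. Without lonely pairs, horse Candidate_374 passed its list's median, with 84.0%. With every listed candidate in the total, the share of listed reads was 0.485% for horse Candidate_386 and 0.498% for Candidate_374. Without the candidate with most reads it was 0.786% and 0.808% for these, 0.208% for dog Candidate_75 and 0.0926% for dog Candidate_103, which then stood above horse Candidate_322 with 0.0638%. Among candidates with at least 10 reads, those with at least as many reads made up 58.8% for bat Candidate_205, 21.2% for horse Candidate_386, 19.2% for Candidate_374, 64.6% for horse Candidate_322, 50.7% for dog Candidate_75 and 80.8% for dog Candidate_103, and bat Candidate_12 could not be placed with its 2 reads. Without any mismatch allowed, matched pairs numbered 5 for bat and horse, 15 for bat and dog and 7 for horse and dog, in place of 15, 25 and 16. Of these, 60% (bat and horse), 26.7% (bat and dog) and 57.1% (horse and dog) were over 90% identical outside the mature sequence. With mismatches allowed the shares were 26.7%, 16% and 25.0%. Both sets are counted in all of these shares and are over 90% themselves, so they weigh more among fewer pairs. The shares therefore do not describe the other pairs alone. Few reads limit set 2 most, above all its 2 bat reads.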
